A study of Mus musculus with 8 samples.

Results

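Sprouty proteins are feedback inhibitors of fibroblast growth factor (FGF) signalling, and 10 genes of this circuit were followed in skin fibroblasts of old and young mice: the ligands Fgf2 and Fgf7, the receptors Fgfr1 and Fgfr2, and the inhibitors Spry1, Spry2, Spry3, Spry4, Spred1 and Dusp6. They were chosen by name with the old-against-young values of these same arrays already known, so their age differences are given as a description, without p-values. Every probe set that the platform annotation assigns to exactly 1 of these symbols was used, which gave 22 of the 45037 probe sets fitted and 10 of the 17097 genes with 1 symbol.

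The old group held 4 male C57Bl/6 mice of 18 months and the young group 4 male C57Bl/6 mice of 2 months, with 1 Affymetrix array per mouse. The labels name no treatment and no altered allele. Cells of all mice came from collagenase-digested skin stripped of its subdermis. They were sorted as Pdgfra+ and CD34+, and as CD45-, CD117-, CD24-, CD31- and EpCam-, and RNA was taken from 5000 cells per mouse. Each collection day gave 2 old and 2 young mice, but the day of each mouse is not stated. That RNA was amplified for 21 cycles. The values are log2 expression, so 1 unit is a 2-fold step, and they do not rank one probe set against another.

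FGF ligands bind receptor tyrosine kinases together with heparan sulfate and switch on Ras and the kinase ERK. ERK activity in turn induces Sprouty, Spred and Dusp6 in many cell types, and these proteins dampen the same cascade. In skin, Fgf2 acts as a mitogen for fibroblasts, and Fgf7 is made by fibroblasts and read by keratinocytes.

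Old fibroblasts carried less Spry1, Spry4 and Fgf2 transcript than young ones. Spry1 lay at 7.10 ± 0.14 in old mice and 8.43 ± 0.29 in young mice, Spry4 at 7.23 ± 0.15 in old and 8.55 ± 0.57 in young, and Fgf2 at 6.85 ± 0.19 in old and 7.89 ± 0.34 in young (SD, n = 4 each, brightest probe set). Spred1 was lower by a smaller amount. Spry2, Fgf7, Fgfr1 and Fgfr2 lay in overlapping ranges at both ages by their brightest probe sets, while Spry3 and Dusp6 were dim in every mouse. A pool of sorted cells cannot tell fewer cells of a kind from less RNA per cell.

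Of the 22 probe sets, 5 passed limma's threshold (adjusted p under 0.05 over all probe sets) as lower in old mice, where 1.35% of all probe sets did, and 0 passed as higher, where 1.23% did. The old and young values did not overlap in 7 of the 22 with old lower, against 4.48% of all probe sets, and in 0 with old higher, against 3.96%. The choice of genes rests on this contrast, so nothing is read from these counts. The median difference of the 22, old minus young, was -0.08, and that of all probe sets was 0.01. By mean, 12 of the 22 were lower in old mice.

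**Figure D1:**
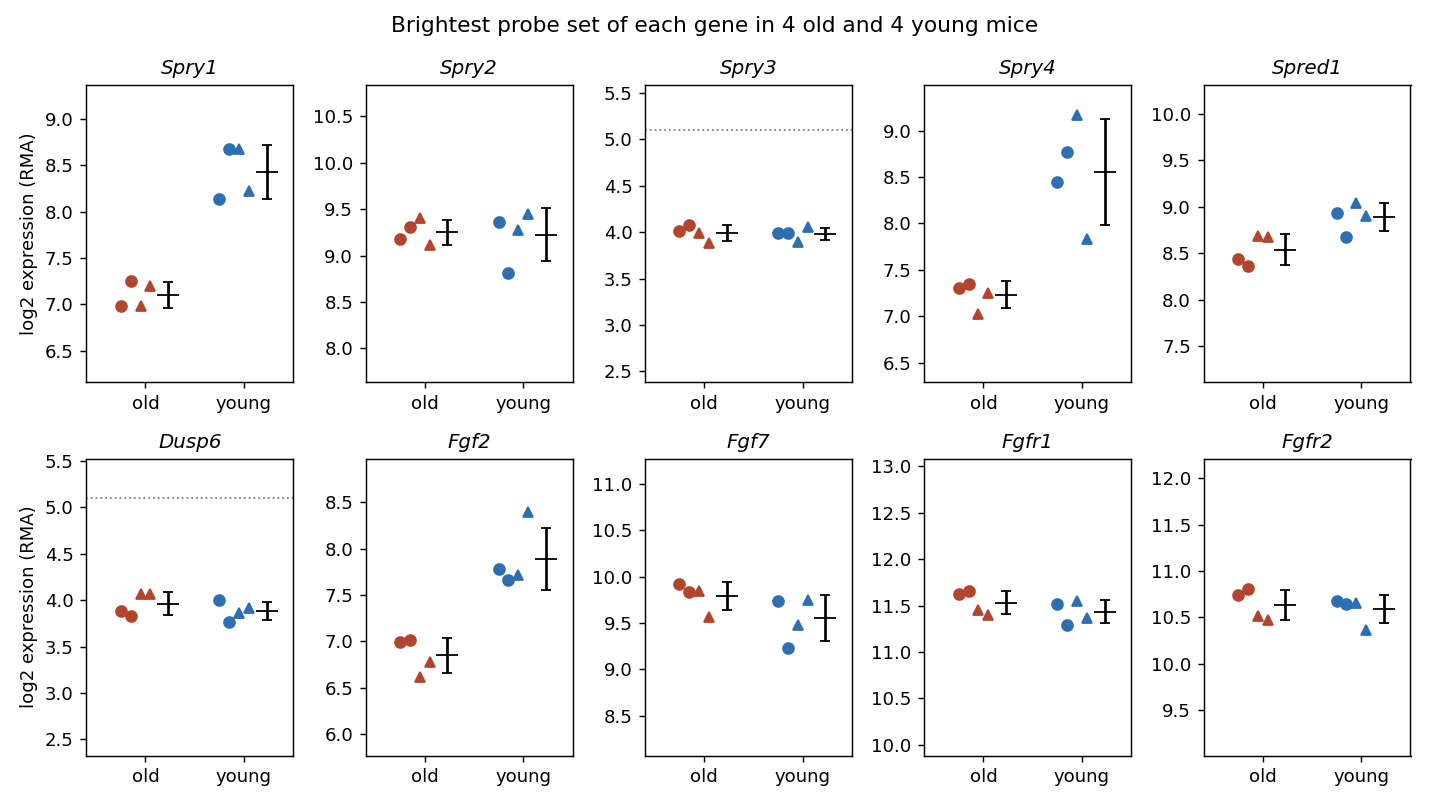
Log2 expression of the brightest probe set of each of the 10 genes in old (left, red) and young (right, blue) mice. Circles are replicates 1 and 2 and triangles replicates 3 and 4. Black marks are means with SD (n = 4 each), every panel spans the same log2 range, and the dotted line is the dim threshold of 5.10. Spry1, Spry4 and Fgf2 are apart between the ages, with all old values below all young ones.

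A probe set with a mean below 5.10, the median of all probe set means, is called dim here. By this measure 19 of the 22 probe sets and 8 of the 10 genes were above the threshold. Non-specific control probe sets had a median of 3.91 and single values from 2.98 to 7.20, so a value above 5.10 can still lie among those controls. The 3' minus 5' difference of the control probe sets, a sign of RNA quality, averaged -0.09 ± 0.04 in old and -0.12 ± 0.06 in young mice for Gapdh (exact permutation test, two-sided, p = 0.486). For Actb it averaged -0.58 ± 0.07 in old and -0.55 ± 0.09 in young mice (SD, n = 4 each; exact permutation p = 0.629, where 0.0286 is the smallest possible). Cd34, a marker of the gate, lay at 11.01 ± 0.03 in old and 10.81 ± 0.06 in young mice, whereas the single probe set of Pdgfra was dim, at 4.47 ± 0.28 in old and 5.06 ± 0.25 in young mice.

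Among the ligands, Fgf2 read 6.99, 7.01, 6.62 and 6.78 in the 4 old mice, against 7.78, 7.66, 7.72 and 8.39 in the 4 young mice. The highest old value was below the lowest young value, and young replicate 4 stood above the other 3 young mice. The difference was -1.04 ± 0.16 (SE), or 2.05-fold lower in old mice, on the only probe set of this gene. Without young replicate 4 it was -0.87.

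Fgf7, the keratinocyte growth factor, read 9.92, 9.83, 9.85 and 9.57 in old mice, against 9.74, 9.23, 9.48 and 9.75 in young mice. The ranges overlapped through old replicate 4 and young replicates 1 and 4. The difference was 0.24 ± 0.13 (SE), less than the SD of 0.25 between young mice.

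Both receptors were bright and close at the 2 ages. Fgfr1, the main FGF receptor of mesenchymal cells, read 11.62, 11.66, 11.45 and 11.40 in old mice, against 11.52, 11.29, 11.55 and 11.37 in young mice. The ranges overlapped, and the difference was 0.10 ± 0.09 (SE). Its other probe sets differed by -0.10 ± 0.18 and 0.03 ± 0.12.

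Fgfr2, whose splice forms divide between epithelium and mesenchyme, read 10.74, 10.81, 10.52 and 10.47 in old mice, against 10.68, 10.65, 10.66 and 10.36 in young mice. These ranges overlapped too, and the difference was 0.05 ± 0.10 (SE). The middle probe set differed by 0.13 ± 0.11. The dimmest, with a mean of 5.23 just above the dim threshold, differed by 0.38 ± 0.12, with 5.33 to 5.66 in old and 4.81 to 5.34 in young mice. Splice forms were not separated here.

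Within the Sprouty family, Spry1 and Spry4 were apart between the ages and Spry2 and Spry3 overlapped. Spry1, a membrane-associated inhibitor of receptor tyrosine kinase signalling, read 6.98, 7.25, 6.98 and 7.20 in old mice, against 8.14, 8.68, 8.67 and 8.22 in young mice. No old value came within the young range. The difference was -1.32 ± 0.14 (SE), or 2.51-fold lower in old mice, and leaving out single mice moved it between -1.42 and -1.24.

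Spry4, which blocks Ras activation downstream of growth factor receptors, had 4 probe sets. The brightest read 7.30, 7.35, 7.02 and 7.25 in old mice, against 8.44, 8.77, 9.17 and 7.83 in young mice. The young mice spread widely, with an SD of 0.57, and the old ones narrowly, with an SD of 0.15. This probe set differed by -1.32 ± 0.24 (SE), or 2.50-fold lower in old mice, and was not called in 6 of the 8 fits that left out 1 mouse. Those 6 were the fits without any 1 of the old mice and those without young replicate 1 or 2.

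The middle pair of Spry4 probe sets gave the same direction. One read 6.26, 6.23, 6.27 and 6.12 in old mice, against 6.67, 7.19, 7.03 and 7.06 in young mice, a difference of -0.77 ± 0.11. The other read 5.20, 5.44, 5.24 and 5.34 in old mice, against 6.06, 6.72, 6.52 and 6.19 in young mice, a difference of -1.07 ± 0.14. Both of this pair were called in all 15 alternative fits over probe sets, and the brightest in 9 of them. The dimmest probe set, with a mean of 3.54, lay below the median of the non-specific controls and differed by -0.16 ± 0.06, also without overlap.

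Spry2, the Sprouty best known as an inhibitor of FGF signalling in branching organs, read 9.18, 9.31, 9.41 and 9.11 in old mice, against 9.36, 8.81, 9.28 and 9.45 in young mice. Old values lay within the young range. The difference was 0.03 ± 0.14 (SE), and that of its other probe set was 0.15 ± 0.15. Spry3 read 3.88 to 4.08 in old mice and 3.90 to 4.06 in young mice, below the dim threshold throughout, with a difference of 0.01 ± 0.06.

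Spred1, a relative of the Sproutys that brings the Ras inhibitor neurofibromin to the membrane, was lower in old mice on each of its 5 probe sets, by 0.05 to 0.46. The brightest read 8.44, 8.36, 8.69 and 8.67 in old mice, against 8.93, 8.68, 9.04 and 8.90 in young mice. Old replicate 3 just exceeded young replicate 2, so the groups overlapped, and the difference was -0.35 ± 0.10 (SE). On the next brightest, old mice read 7.63, 7.57, 7.96 and 7.95 and young mice 8.17, 8.14, 8.39 and 8.23, without overlap, with a difference of -0.46 ± 0.11.

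Dusp6, a phosphatase that inactivates ERK, read 3.88, 3.83, 4.07 and 4.07 in old mice, against 4.00, 3.77, 3.86 and 3.92 in young mice. All 8 values lay near the control median of 3.91. The difference was 0.08 ± 0.08 (SE) on its single probe set, and a change at so low a signal could be missed.

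**Figure D2:**
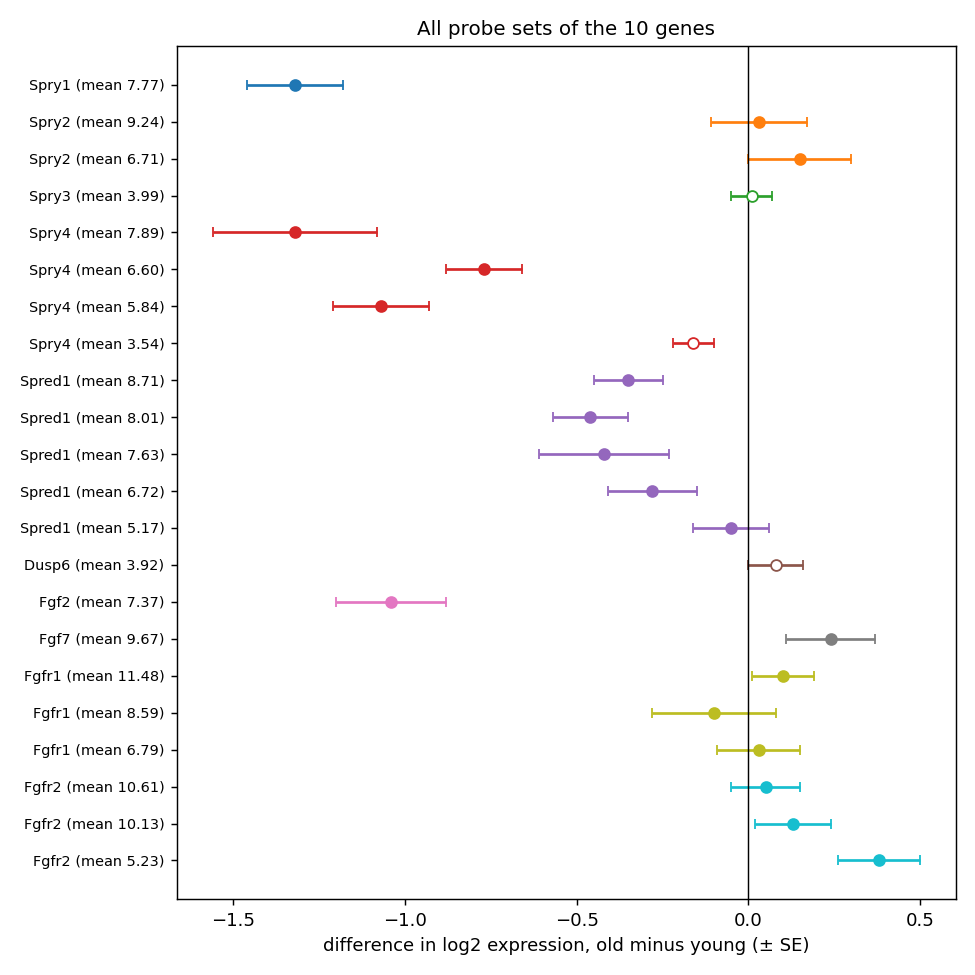
Difference in log2 expression, old minus young, for all 22 probe sets of the 10 genes, with the standard error of the limma fit. Labels give the mean over 8 arrays, open circles mark means below 5.10, and colours mark genes. All 4 probe sets of Spry4 and all 5 of Spred1 lie left of 0, and the single probe sets of Spry1 and Fgf2 lie at -1.32 and -1.04.

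Fgf2 and Spry1 share chromosome 3, with only Nudt6 and Spata5 as protein-coding genes between them in the RefSeq annotation (GRCm38.p6). This neighbourhood was examined after the values were seen. Nudt6, a nucleotide hydrolase gene known as the antisense partner of Fgf2, overlaps Fgf2 in that annotation and read 7.63, 7.65, 7.38 and 7.16 in old mice, against 8.11, 8.06, 7.78 and 8.40 in young mice. Its values did not overlap between the ages, and the difference of -0.63 ± 0.15 (SE) did not pass the threshold (limma adjusted p = 0.0612). Its other probe set differed by -0.30 ± 0.15. The labels do not say whether labelling kept the strand, so a share of either transcript in the signal of the other was not tested.

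Spata5, the gene next to Spry1, read 8.51, 8.67, 8.52 and 8.76 in old mice, against 8.19, 8.27, 8.72 and 8.07 in young mice. It overlapped between the ages, and its difference of 0.30 ± 0.13 did not pass (limma adjusted p = 0.371). Its other probe sets differed by -0.11 to -0.02. On the far side of Spry1, Ankrd50 differed by -0.28 ± 0.14 (limma adjusted p = 0.464). Beyond Fgf2, Bbs12, Cetn4 and Il21 were dim and differed by -0.26 to 0.11.

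**Figure D3:**
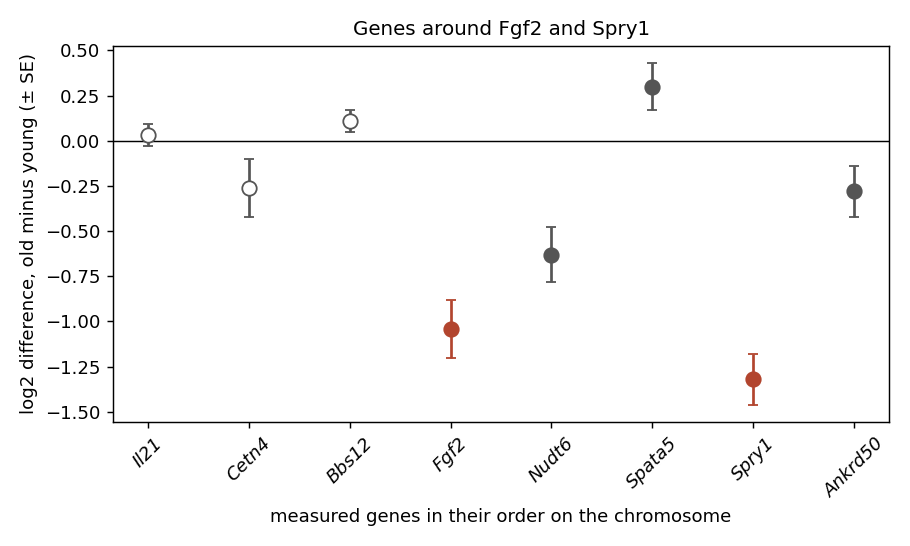
Difference in log2 expression, old minus young, with standard errors, for the measured protein-coding genes in their order on chromosome 3 from Il21 to Ankrd50, evenly spaced. Red marks Fgf2 and Spry1, and open circles mark means below 5.10. Between these 2 genes, Nudt6 lies at -0.63 and Spata5 at 0.30.

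The promoter windows of Fgf2 and Spry1, which were lower in old mice, are shown beside that of Spry2, which was at a like level at both ages. Each runs from 250 bases before to 50 bases after the annotated start (RefSeq, GRCm38.p6), 5′ to 3′ along the gene, and capitals mark the GC box GGGCGG. Windows of 7 of the 10 genes were searched. Those of Spry3, Spry4 and Fgfr1 were left out. The motif results therefore do not cover Spry4, which was also lower in old mice.

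Fgf2 (chr3:37348403-37348702, + strand): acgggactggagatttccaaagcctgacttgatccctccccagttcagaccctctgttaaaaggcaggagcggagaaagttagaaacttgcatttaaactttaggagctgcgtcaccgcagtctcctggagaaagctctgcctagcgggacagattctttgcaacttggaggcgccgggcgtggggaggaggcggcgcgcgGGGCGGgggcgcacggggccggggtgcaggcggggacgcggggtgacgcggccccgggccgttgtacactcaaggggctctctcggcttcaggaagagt
Spry1 (chr3:37639697-37639996, + strand): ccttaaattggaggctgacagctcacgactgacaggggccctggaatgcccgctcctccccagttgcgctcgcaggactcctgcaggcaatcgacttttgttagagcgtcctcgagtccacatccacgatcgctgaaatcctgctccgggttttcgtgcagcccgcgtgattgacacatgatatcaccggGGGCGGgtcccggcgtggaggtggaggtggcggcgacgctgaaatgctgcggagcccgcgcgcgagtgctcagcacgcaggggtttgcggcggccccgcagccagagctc
Spry2 (chr14:105896770-105897069, - strand): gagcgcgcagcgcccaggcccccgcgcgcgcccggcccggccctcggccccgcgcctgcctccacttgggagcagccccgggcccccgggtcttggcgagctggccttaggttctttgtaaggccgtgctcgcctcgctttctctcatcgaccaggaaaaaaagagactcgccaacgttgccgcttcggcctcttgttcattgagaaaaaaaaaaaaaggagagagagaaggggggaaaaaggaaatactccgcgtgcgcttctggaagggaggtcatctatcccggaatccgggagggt

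Both strands were searched for 7 motifs, and a match is a description of letters only. The GC box was found once in Fgf2, at position -49 from the start, once in Spry1, at -60, and not in Spry2, Fgf7, Fgfr2 or Dusp6. It is in 35.7% of all 32851 windows. Spred1, the most GC-rich of the 7 windows at 72.3%, held 3 GC boxes, and GC content was 62.7% in Fgf2, 64.3% in Spry1 and 62.7% in Spry2, against a median of 52.7% over all windows. The EGR motif GCGTGGG was found in Fgf2 alone among the 7, at -72, and is in 5.04% of all windows. The CCAAT box, in 37.4% of all windows, was found in Spry1, Fgf7 and Dusp6.

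The ETS motif CCGGAAG (in 8.86% of all windows), the AP-1 motif TGANTCA (7.81%), the CRE TGACGTCA (1.79%) and the TATA motif TATAAA (13.6%) were in none of the 7 windows. Nothing about the factors follows from their absence in so short a stretch.

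The numbers in the sample titles fall into 2 runs, each with 2 old and 2 young mice. The labels do not say what the runs stand for. The choice of genes did not use this contrast, so it was tested. None of the 22 probe sets passed limma's threshold between the second and the first run, where 0.211% of all probe sets did. At an unadjusted p under 0.05 there were 7 of the 22, against 17.0% of all.

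The probe set of Spred1 with a mean of 7.63 came nearest to the threshold, at 7.89 in the second run and 7.37 in the first, a difference of 0.52 ± 0.08 (SE; limma adjusted p = 0.055). All 5 Spred1 probe sets were higher in the second run, by 0.21 to 0.52. The dimmer Spry2 probe set averaged 6.89 in the second run and 6.52 in the first (0.37 ± 0.09, limma adjusted p = 0.113). Spry1 averaged 7.77 in the second run and 7.76 in the first, and Fgf2 7.38 in the second and 7.36 in the first.

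Within the runs, the age difference of Spry1 was -1.36 in the second and -1.29 in the first, and that of the brightest Spry4 probe set was -1.37 in the second and -1.28 in the first. Fgf2 differed by -1.35 in the second run and by -0.72 in the first. Spred1 differed by -0.29 in the second and by -0.41 in the first. The small differences of Spry2, Fgfr1 and Fgfr2 changed sign between the runs, at -0.10, -0.04 and -0.01 in the second and 0.16, 0.24 and 0.11 in the first.

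In a test of these differences between runs, 0 of the 22 probe sets passed in limma, as did 0% of all probe sets, while 3043 of the 45037, or 6.76%, had an unadjusted p under 0.05. Fgf2 gave -0.64 ± 0.27 (SE; limma adjusted p = 0.738). The middle probe set of Fgfr1 gave -0.58 ± 0.20 (limma adjusted p = 0.658) and was the 1 member probe set with an unadjusted p under 0.05. With 2 mice of an age in each run, differences of this size could be missed.

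**Figure D4:**
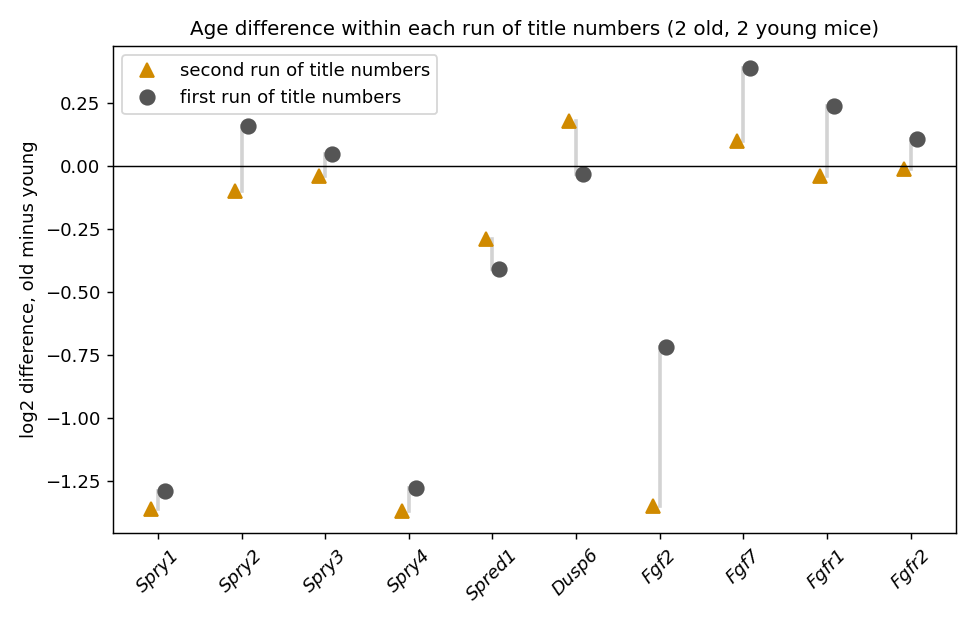
Log2 difference, old minus young, of the brightest probe set of each gene within the second run (triangles) and the first run (circles) of title numbers, each from 2 old and 2 young mice. Spry1, Spry4 and Fgf2 lie between -1.37 and -0.72 in both runs, and Fgf2 lies at -1.35 in the second and -0.72 in the first.

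Beyond the 10 genes, 92 other genes of the pathway were listed by role, of which 80 were measured and 60 were above the dim threshold. By the brightest probe set of each, 1 rose and 1 fell in old mice, while the rest did not pass limma's threshold, and 3.36% of all 17097 genes passed. At an unadjusted p under 0.05 there were 20 of the 80, or 25%, and 2650 of all 17097 genes, or 15.5%. The difference between these shares was not tested. The median difference of the 80 was -0.01, and that of all genes was 0.01.

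The gene that fell was Spred2, a paralogue of Spred1 and likewise an inhibitor of Ras and ERK signalling. Its brightest probe set read 8.56, 8.69, 8.48 and 8.45 in old mice, against 9.22, 9.13, 9.11 and 8.75 in young mice. All old values were below all young ones, and the difference was -0.51 ± 0.11 (SE; limma adjusted p = 0.0412). The other bright probe sets fell as well, by 0.72 ± 0.09 (limma adjusted p = 0.00468) and 0.55 ± 0.08 (limma adjusted p = 0.00717). The remaining pair was dim and differed by -0.14 and -0.06. The brightest one passed in 8 of 16 alternative fits, with limma adjusted p from 0.007 to 0.115, the highest without young replicate 2. Among the fits that left out 1 mouse, it passed only without young replicate 4.

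The gene that rose was Gpc6, a glypican that carries heparan sulfate chains, and the only 1 of 13 measured heparan sulfate carriers and enzymes to pass. It read 7.53, 8.01, 7.53 and 7.40 in old mice, against 6.98, 6.88, 6.67 and 7.18 in young mice, without overlap. The difference was 0.69 ± 0.15 (SE; limma adjusted p = 0.0441), and it passed in 9 of 16 alternative fits (limma adjusted p from 0.0244 to 0.115). Among the fits that left out 1 mouse, this probe set too passed only without young replicate 4. Its other probe sets differed by 0.14, 0.18 and 0.41 and did not pass.

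Of 20 other FGF ligands, 0 passed and 12 were above the dim threshold, with a median difference of 0.02. Fgf14 came nearest, higher in old mice without overlap (0.45 ± 0.11 SE, limma adjusted p = 0.0627), and its other probe set differed by 0.08. Fgf10, a ligand of Fgfr2 and a gene of the hair follicle dermal papilla, read 5.65, 5.66, 5.19 and 5.36 in old mice, against 5.79, 5.75, 6.22 and 6.33 in young mice. Its difference of -0.56 ± 0.16 did not pass (limma adjusted p = 0.123). The age difference of Fgf10 in the second run minus that in the first was -0.89 ± 0.13 (SE; limma adjusted p of this interaction = 0.455). Of 10 other receptors, co-receptors and binding proteins, 0 passed. Flrt2 was higher in old mice without overlap (0.23 ± 0.07 SE, limma adjusted p = 0.155), and its other probe sets differed by up to 0.52. The receptor gene Fgfr4 differed by -0.56 ± 0.13 (limma adjusted p = 0.0538) and Fgfr3 by -0.52 ± 0.12 (limma adjusted p = 0.0517), both without overlap. Other probe sets of Fgfr4 differed by as little as -0.21 and of Fgfr3 by -0.13.

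Of 13 measured adaptor, Ras and ERK cascade genes, 0 passed, with differences from -0.26 to 0.33. The highest was that of Ptpn11, without overlap (0.33 ± 0.09 SE, limma adjusted p = 0.0916), and its other probe set differed by 0.13. Among 9 other feedback inhibitors, Spred2 alone passed, and 6 of the 9 were lower in old mice by mean. Errfi1 (0.22 ± 0.06 SE, limma adjusted p = 0.122) and the dim Spred3 (0.24 ± 0.08 SE, limma adjusted p = 0.214) were higher without overlap. The ERK phosphatase gene Dusp4 read 4.96, 5.05, 4.79 and 4.97 in old mice, against 5.10, 5.89, 5.92 and 5.19 in young mice, a difference of -0.58 ± 0.19 (limma adjusted p = 0.181). Of 15 ERK-responsive transcription factors and targets, 0 passed, with differences from -0.63 to 0.18 and a median of -0.07. By mean, 11 of the 15 were lower in old mice. The lowest was that of Egr2, at -0.63 ± 0.27 (SE; limma adjusted p = 0.345), with overlap. Etv1 was dim and differed by -0.24 ± 0.09 without overlap (limma adjusted p = 0.263). The FGF-responsive ETS factor genes Etv4 and Etv5 were dim, with differences of -0.12 ± 0.08 and -0.16 ± 0.11 (limma adjusted p = 0.665 and 0.66).

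**Figure D5:**
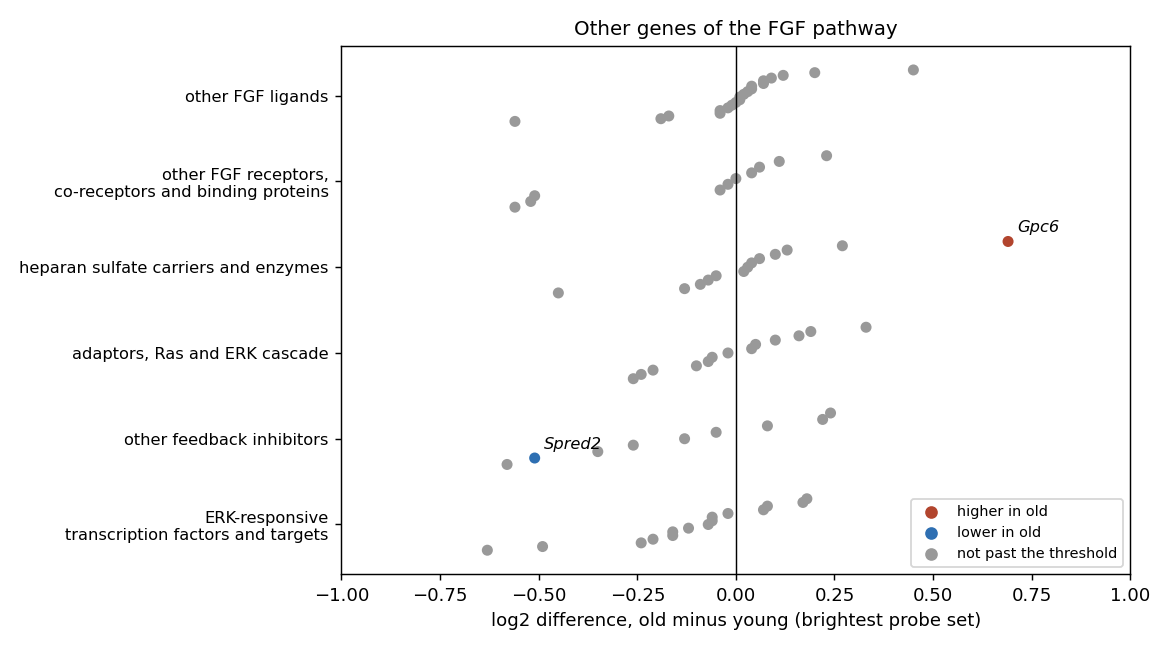
Log2 difference, old minus young, of the brightest probe set of 80 FGF pathway genes outside the 10, in 6 lists. Each dot is a gene; red passed limma's threshold as higher in old mice, blue as lower, and grey did not pass. Gpc6 lies at 0.69 and Spred2 at -0.51.

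Likeness of pattern was taken as Pearson's r over the 8 arrays, among 10553 other genes above the dim threshold, and holds the age difference in it. The genes most like Spry1 were F13a1 (r = 0.993), Rgs3 (0.987) and Tpst2 (0.986), and those most like Spry4 were Smox (0.989), Zfp142 (0.989) and Trank1 (0.987). Fgf2 was closest to Cxxc1 (0.983), Ap4m1 (0.976) and Lrig1 (0.972). On deviations from the mean of each age, Spry1 was still closest to F13a1 (0.966), with Pacsin1 (0.952) and Dusp4 (0.948) next. In that ranking, the closest gene changed for Fgf2, to Stard5 (0.989), and for Spry4, to Cdv3 (0.982) with Zfp142 (0.980) next. Spry2 was closest to Akap2 (0.984), Spred1 to Cxcl1 (0.976) and Fgf7 to Icam1 (0.974). The largest of so many coefficients over 8 arrays is high by construction, and no test was made of them.

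Immediate early genes, which ERK and tissue digestion both induce, were bright in every mouse. Egr1 lay at 12.40 ± 0.24 in old and 12.42 ± 0.04 in young mice (SD, n = 4 each), and 0 of 11 such genes passed. By mean, 9 of the 11 were lower in old mice. Jun, at 10.88 ± 0.42 in old and 11.36 ± 0.17 in young mice, differed most, by -0.48 ± 0.19 (SE; limma adjusted p = 0.293). Fos read 11.90 to 12.11 in old and 12.14 to 12.39 in young mice, without overlap (limma adjusted p = 0.29). The summed linear signal of the 11 ranged from 30837 to 36521 in old and from 34597 to 37090 in young mice.

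Marker lists of other cell types were measured in the same way. The summed linear signal of 11 leukocyte genes was 742 to 833 in old and 689 to 842 in young mice, with 0 passing, and that of 9 endothelial genes 317 to 363 in old and 299 to 341 in young mice, with 0 passing. Of the 11 leukocyte genes, 5 were above the dim threshold. Csf1r was much the brightest of them, with a mean of 8.83 and a difference of -0.03, while Ptprc was dim. The 9 keratinocyte genes summed to 576 to 1703 in old and 494 to 819 in young mice, with 0 passing. Old replicate 3 read highest of all mice for Krt10, Dsp and Krt1, at 9.13, 7.76 and 6.38. The other old mice read 6.23 to 6.84, 4.25 to 5.36 and 4.33 to 4.98 in that order. Epcam, against which the cells were sorted, read 5.23 to 5.61 in old mice and 4.96 to 5.13 in young mice, without overlap (0.40 ± 0.10 SE, limma adjusted p = 0.0715). The basal keratin gene Krt5 averaged 7.95 ± 0.78 in old and 6.83 ± 0.70 in young mice (SD, n = 4 each) with overlapping values (limma adjusted p = 0.267). None passed of 6 mast cell, 6 adipocyte, 6 skeletal muscle, 2 erythrocyte and 9 dermal papilla genes, and their summed signals overlapped between the ages. The other 3 lists were apart between the ages. Pericyte and smooth muscle genes (1 of 5 rose, Kcnj8) summed to 344 to 459 in old and 272 to 304 in young mice. Kcnj8 differed by 1.16, while Rgs5, Notch3, Myh11 and Des differed by -0.04 to 0.04. Melanocyte genes (1 of 7 rose, Mlana) summed to 769 to 1509 in old and 410 to 560 in young mice, while Dct, Tyr and Tyrp1 were dim. Mlana differed by 2.88 and Mitf by 0.57, and the other 5 by -0.08 to 0.12. Schwann cell genes (1 of 4 fell, Ncam1) summed to 316 to 378 in old and 399 to 556 in young mice. Ncam1 differed by -0.93, and Mbp, Sox10 and Foxd3 by 0.00 to 0.10. These marker values are those of brightest probe sets. The 6 probe sets of Ncam1 ranged from -1.22 to 0.07. The other probe set differed by 0.06 for Epcam, -0.04 for Mitf and 0.37 for Des. The part of these signals in the differences of Spry1, Spry4, Fgf2, Spred2 and Gpc6 was not tested.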

How the data were processed

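The authors deposited 1 table of log2 expression values for 8 arrays, and the submitters' processing notes name RMA and the affy package without a version. RMA adjusts background, normalizes between arrays and summarises each probe set. No source used here gives the array version or a filter. Values have 2 decimals, array medians ran from 5.06 to 5.14, and 0 arrays were duplicates. The number of arrays limits the precision.

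The 104 array control probe sets were left out, and 45037 were fitted. Gene names came from the platform annotation: 28898 probe sets had 1 symbol, 551 had several and 15588 had none, and 28689 matched a mouse gene table by gene ID with 0 symbols changed. The brightest probe set of a gene is the one with the highest mean over all 8 arrays.

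Linear models in limma 3.58.1 (R 4.3.3), with variances moderated by eBayes and two-sided tests, gave old minus young with standard errors (SE) from its moderated variance, the contrast between title runs with age in the fit, and their interaction. P-values were adjusted by Benjamini-Hochberg over all 45037 probe sets, with a threshold of 0.05. Replicate numbers follow the order of the labels and pair no mice. The scripts were tested on simulated data.

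The members, the pathway and marker lists and the tests were chosen with earlier results of these data known. The genes named outside the members were those past the threshold in the pathway lists, plus the most alike genes by r. Fgf10, Fgf14, Fgfr3, Fgfr4, Flrt2, Ptpn11, Dusp4, Errfi1, Spred3, Etv1, Etv4, Etv5, Egr1, Egr2, Jun, Fos, the single marker genes and the chromosomal neighbours were picked after their values were seen. Alternatives changed the prior, weights, array scaling, the dim filter, the unit of the fit, the title-run term and the set of mice. Of the 92 listed pathway genes, 12 are not analysed here.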

Additional observations from a re-analysis of the deposited data

Results flagged for a closer look

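Among 24 groups of 4 mice (the 10 genes by brightest probe set plus Spred2 and Gpc6, at each age), a single mouse stood far from the other 3 in 2 groups; by chance about 1 group in 20 would be marked. Young replicate 4 had the highest Fgf2 value of the young mice, 8.39, and the gap to the next filled 0.836 of the range of the group. Young replicate 4 also had the lowest Fgfr2 value of the young mice, 10.36, with a gap of 0.906 of the range. The same mouse had the lowest Gapdh 3' minus 5' difference of all 8 arrays, -0.21 against -0.13 to -0.04 in the others, and the highest Actb one, -0.41 against -0.66 to -0.51. The part of this in its Fgf2 and Fgfr2 values was not tested. Without this mouse the difference, old minus young, was -0.87 for Fgf2 and -0.03 for Fgfr2.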

How the results depend on the processing

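The differences of Spry1, Spry4 and Fgf2 stayed negative in all alternatives run. The single probe sets of Spry1 and Fgf2 were called in all 15 alternative fits over probe sets. Averaging all probe sets of the gene gave -0.83 for Spry4, and the dimmest probe set above the dim threshold gave -0.05 for Spred1 and 0.38 for Fgfr2. Of the 22 probe sets, 5 were called lower; with the title run as a block it was 8, and without single mice 4 to 5, and nothing is read from these counts. Of all probe sets, 1163 were called for age: 1713 with array weights, 1712 with the title-run block, 1021 to 1342 under the other scalings, priors and the dim filter, 698 to 1089 without single mice (698 without old replicate 3, 707 without old 4, 713 without old 2, 721 without young 3, 725 without young 2), and 679 genes with 1 probe set per gene, where fewer features were tested. Of the 80 pathway genes, 2 were called: 4 with array weights, 5 with dim probe sets left out, 5 with 1 probe set per gene, 5 with the title-run block, and 0 to 4 without single mice (0 in the fits lacking young replicate 1, young 2, young 3, old 2 or old 3, and 1 in those lacking old 1 or old 4). Fgfr3 and Fgfr4 were among those added in each of these 4 settings. Fgf14 was added with dim probe sets left out and with 1 probe set per gene, and Egr2 with the title-run block. Calls between title runs numbered 95: 661 with array weights, 21 with renewed quantile normalization, 260 with arrays centred on their median, 226 with dim probe sets left out, 8 with 1 probe set per gene, and 0 to 584 without single mice. The interaction gave 0 calls: 1 with a prior by mean level, and 0 to 1 without single mice. The cause of these shifts was not tested.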
